A study of Mus musculus with 4 samples.

Results

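Erbin, Arfgef1, Cltc, Hipk2 and 4932438A13Rik are 5 mouse genes whose spans held some of the largest numbers of MSI2 CLIP peaks outside the enterocyte enzymes. They were chosen by that number in at least 1 list, so it is a description here and not a finding. All rows of the peak lists that overlap their mm10 spans by at least 1 base were taken. This gave 90 of 16939 TRE-Msi2 peaks and 54 of 12061 wild-type (WT) peaks, over 5 of 21900 protein-coding genes.

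The lists come from CLIP-seq, in which ultraviolet light joins RNA to protein in the cells, an antibody collects the protein (here MSI2) and the attached RNA is sequenced. TRE-Msi2 mice carry a doxycycline-inducible Msi2 transgene, and 2 libraries were made from their total intestinal epithelium after 24 hours of doxycycline. For the 2 WT libraries the protocol names crypts and records no doxycycline. Both genotypes are on a C57BL6 background, and the same antibody was used for all 4 libraries. Genotype, tissue fraction and doxycycline therefore cannot be told apart. The authors merged the libraries of a genotype before peaks were called, so there is 1 list per genotype, no spread between replicates and no test between genotypes. The labels name no driver of the transgene, and library depth is unknown. RNA abundance was not measured in data used here, so more binding per transcript and more transcript cannot be told apart.

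Each peak is made of bins of 200 nt and carries a score. In the single-bin peaks of these 5 genes the score is always a whole number and is read here as a count; in wider peaks it behaves as an average and is not set against single bins as a count. The lowest score of any single-bin peak was 20 in the TRE-Msi2 list and 15 in the WT list, which acts as a floor. Scores and p-values of peaks are the authors'. Epithelial markers were present: 7 of 7 had a TRE-Msi2 peak and 6 of 7 a WT peak, Krt18 being the one without. Enterocyte markers (6 of 6) and crypt markers (4 of 4) held peaks in both lists. None of the 12 markers of stroma, muscle, endothelium and leukocytes, such as Col1a1, Acta2, Pecam1 and Ptprc, held a peak in either list. Most genes held none either: a TRE-Msi2 peak lay over 24.9% of all protein-coding genes and a WT peak over 20.3%. The lack of peaks over these 12 markers therefore does not show that such cells were absent, which was not tested.

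Musashi proteins bind single-stranded RNA through a pair of RNA recognition motifs and are best known for binding short motifs in messenger RNA and changing its translation or stability. MSI2 is expressed in stem and progenitor cells of several tissues, the intestinal crypt among them. The 5 genes encode proteins of different kinds. Erbin is a scaffold with leucine-rich repeats and a PDZ domain that sits at the basolateral side of epithelial cells and binds the receptor ERBB2. Arfgef1, also called BIG1, activates Arf GTPases at the trans-Golgi. Cltc is the heavy chain of clathrin, the coat of endocytic and Golgi-derived vesicles. Hipk2 is a nuclear serine/threonine kinase known for phosphorylating p53 after DNA damage. 4932438A13Rik, with the synonyms Kiaa1109 and Tweek, encodes a very large protein of the bridge-like lipid transfer group; its Drosophila counterpart is known for a role in synaptic vesicle recycling.

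In number of peaks, Erbin and Arfgef1 shared place 4 in the TRE-Msi2 list with 21 each, behind Mgam (52), Sis (44) and St3gal4 (37). Cltc and 4932438A13Rik shared place 8 with 17 each, together with Dmbt1. Hipk2 was at place 19 with 14. Just below the genes with 17 stood Ahnak and Cdh17 with 16 each. In the WT list, Erbin was at place 6 with 15, level with Dpp4, while Cltc and Hipk2 shared place 9 with 12. Arfgef1 held 11 WT peaks (place 14). Only 4 WT peaks lay over 4932438A13Rik, a number passed by 268 protein-coding genes. For scale, 5448 protein-coding genes held a TRE-Msi2 peak and 4449 a WT peak, both with a median of 1; 10 or more peaks lay over 77 genes in the TRE-Msi2 list and 35 in the WT list.

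**Figure D1:**
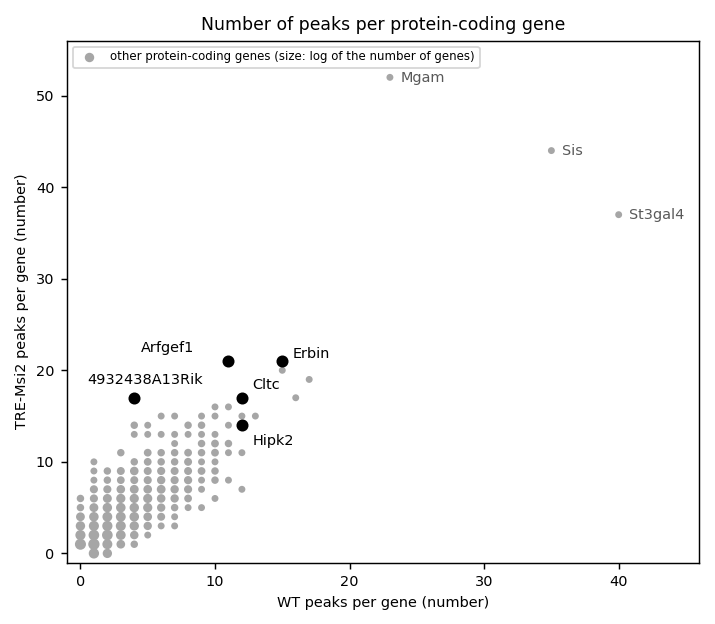
Number of TRE-Msi2 peaks (vertical axis) against number of WT peaks (horizontal axis) per protein-coding gene; black points are the 5 genes described here and grey points the others with a peak in either list, larger where more genes coincide. Erbin stands at 21 and 15, Arfgef1 at 21 and 11, Cltc at 17 and 12, Hipk2 at 14 and 12, and 4932438A13Rik at 17 and 4.

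Peak density set the genes in another order than peak number. Cltc, with the shortest span of the 5 (63.2 kb), held 26.9 TRE-Msi2 and 18.98 WT peaks per 100 kb. Arfgef1 (95.2 kb) held 22.1 and 11.6, and Erbin (101.8 kb) held 20.6 and 14.7. The spans of Hipk2 (188.8 kb) and 4932438A13Rik (190.0 kb) were the longest, at 7.41 TRE-Msi2 and 6.36 WT peaks per 100 kb in Hipk2 and 8.95 and 2.11 in 4932438A13Rik. Genes with 10 or more peaks had medians of 18.8 in the TRE-Msi2 list and 18.2 in the WT list. Peaks covered 8.19% of the Erbin span in the TRE-Msi2 list and 4.85% in the WT list, and 7.91% and 5.69% of the Cltc span. In Arfgef1 these were 5.67% and 3.15%, in Hipk2 2.22% and 1.80%, and in 4932438A13Rik 2.42% and 0.421%.

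All 90 TRE-Msi2 and 54 WT peaks touched only the span of their own gene. Parts of Erbin also lie under D130037M23Rik, and parts of Hipk2 under 4930502C15Rik and Tbxas1, but 0 of the peaks fell in those overlaps in either list. The transcribed strand was taken from RefSeq promoter entries, which give it for 4 of the 5 genes. In these 4, 69 of 69 TRE-Msi2 and 43 of 43 WT peaks lay on that strand; over all peaks within a single protein-coding span of known strand it was 86.3% in the TRE-Msi2 list and 84.3% in the WT list. Arfgef1 has no such entry, and its 21 TRE-Msi2 and 11 WT peaks all lay on the minus strand. None of the peaks of these 4 genes reached a promoter window (250 bases before to 50 after the start), and Arfgef1 could not be looked up. No genome sequence was used here, so no sequence is shown.

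Erbin, on chromosome 13 (positions 103818786 to 103920586, minus strand), was tiled over the later part of its span. Distances along a gene are taken at the midpoints of peaks, here and below. The TRE-Msi2 peaks of Erbin ran from 34.4 kb after the start of the gene to 1.04 kb before its end. The last of them is 2200 nt wide and covers the end of the gene. In order along the gene, the scores of the 21 TRE-Msi2 peaks were 33, 31, 21, 31, 22, 31, 27, 44, 25, 21, 20, 51, 22.3, 32, 27.3, 23.8, 31, 30, 25, 23 and 25.3. The 15 WT peaks scored 16, 15, 15, 22, 29, 13, 25, 15.3, 24.5, 19, 18, 16, 18, 25 and 26.7. The highest score as listed belonged to the same bin in both lists, at 103844721 to 103844920, with 51 in the TRE-Msi2 list and 29 in the WT list. Bins inside wider peaks have no listed score of their own, so they are not ranked here.

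Read as counts, the Erbin score of 51 has an exact Poisson 95% interval of 38.0 to 67.1 and the lowest, 20, one of 12.2 to 30.9; the intervals do not overlap. For the WT score of 29 the interval is 19.4 to 41.6, which overlaps that of a score of 15 (8.40 to 24.7). These intervals cover counting error only. Here and in the genes below, the scores compared were picked as high or low ones above a floor. Overlap of their intervals, or its absence, is therefore not a test. A second strong TRE-Msi2 bin lay at 103856921 to 103857120 (44, against 22 in WT). At the end of the gene the TRE-Msi2 list has a peak of 2200 nt (103818721 to 103820920), the widest of all 5 genes, where the WT list has 2 peaks of 600 nt and 1000 nt. A further TRE-Msi2 peak of 1800 nt, 15.4 kb before the end, covers 3 separate WT peaks.

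Arfgef1 lies on chromosome 1 at 10137507 to 10232670. Its start and end are set here by the minus strand of its own peaks, which is a reading from the data and not from an annotation. Its first peak in both lists was 18.5 kb after the start, and the last was 0.413 kb from the end. The 21 TRE-Msi2 scores along the gene were 43, 25, 32, 21, 46, 21.2, 21, 19.3, 24, 29, 24, 23, 24, 22, 20, 25, 20, 21, 22, 23.8 and 24.3. The 11 WT scores were 23, 17, 19, 27, 14, 15, 20, 20, 15, 20.5 and 22. The highest listed score was again in the same bin in both lists, at 10188720 to 10188919 (46 TRE-Msi2, 27 WT). So was the next highest, at 10214120 to 10214319 (43 and 23). In the TRE-Msi2 list the bin at 10199720 followed (32, with 19 in WT), and the other 14 single-bin TRE-Msi2 peaks of Arfgef1 scored from 20 to 29. The interval of 46 (33.7 to 61.4) lies above that of 20, while that of 32 (21.9 to 45.2) overlaps it. No Arfgef1 peak was wider than 600 nt in either list.

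Cltc (chromosome 11, 86694352 to 86757567, minus strand) had its first peak 20.4 kb after the start in both lists. Along the gene the 17 TRE-Msi2 peaks scored 22, 40, 20, 23, 25, 34.5, 36, 42, 26, 23, 45, 31, 34, 27, 20, 20 and 33.5. The 12 WT peaks scored 15, 17, 19, 18.5, 21, 25, 23, 19, 23, 18, 15 and 17.5. Here the place of the highest listed score differed between lists. It was at 86708899 to 86709098 in TRE-Msi2 (45, with 23 in WT) and at 86712499 to 86712698 in WT (25, with 42 in TRE-Msi2). Bins inside wider peaks, such as the one at the end of the gene, could again not be ranked. The Poisson intervals of 45 (32.8 to 60.2) and 42 (30.3 to 56.8) overlap almost wholly, as do those of 23 (14.6 to 34.5) and 25 (16.2 to 36.9). The bins were picked as the highest, so this does not test their order. The peak at the end of Cltc was 1200 nt wide and had the same limits in both lists.

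Hipk2 (chromosome 6, 38687512 to 38876331, minus strand) was not tiled along its span. Within the last 11 kb lay 12 of its 14 TRE-Msi2 peaks and 10 of its 12 WT peaks. The remaining 2 in each list lay together 57.1 to 57.8 kb after the start, and the stretch of about 120.4 kb (TRE-Msi2) or 121.0 kb (WT) in between held 0 peaks. Along the gene the TRE-Msi2 scores were 28.5, 31, 20, 28.5, 34, 23.5, 34, 28, 27, 25, 20, 22.5, 24 and 42. The WT scores were 18, 20, 29, 15, 17.5, 16, 27, 22.3, 24, 18.5, 17 and 39.5. The highest peak of both lists was the last one, at 38687602 to 38688001 (42 TRE-Msi2, 39.5 WT, each over 2 bins), 0.290 kb from the end of the gene. That WT score is above 96.8% of the WT list; the TRE-Msi2 score is above 93.7% of its list.

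4932438A13Rik (chromosome 3, 36863063 to 37053033, plus strand) had low scores in both lists and few WT peaks. The 17 TRE-Msi2 scores along the gene were 20, 21, 20, 20.4, 22, 29, 22, 20, 25, 15.3, 20, 30, 31, 21, 20, 25 and 28. The 4 WT scores were 15, 20, 16 and 15, at 80.3, 124.3, 149.9 and 189.7 kb after the start. Of its TRE-Msi2 scores the highest (31, interval 21.1 to 44.0) and a score at the floor of 20 (12.2 to 30.9) have overlapping intervals. This does not show that the bins are equal. A run of 8 TRE-Msi2 peaks lay between 80.3 and 102.6 kb, and its first was the only one of the 8 with a WT counterpart. A single peak in each list marked the end of the gene, at 37052679 to 37052878 (28 TRE-Msi2, 15 WT).

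**Figure D2:**
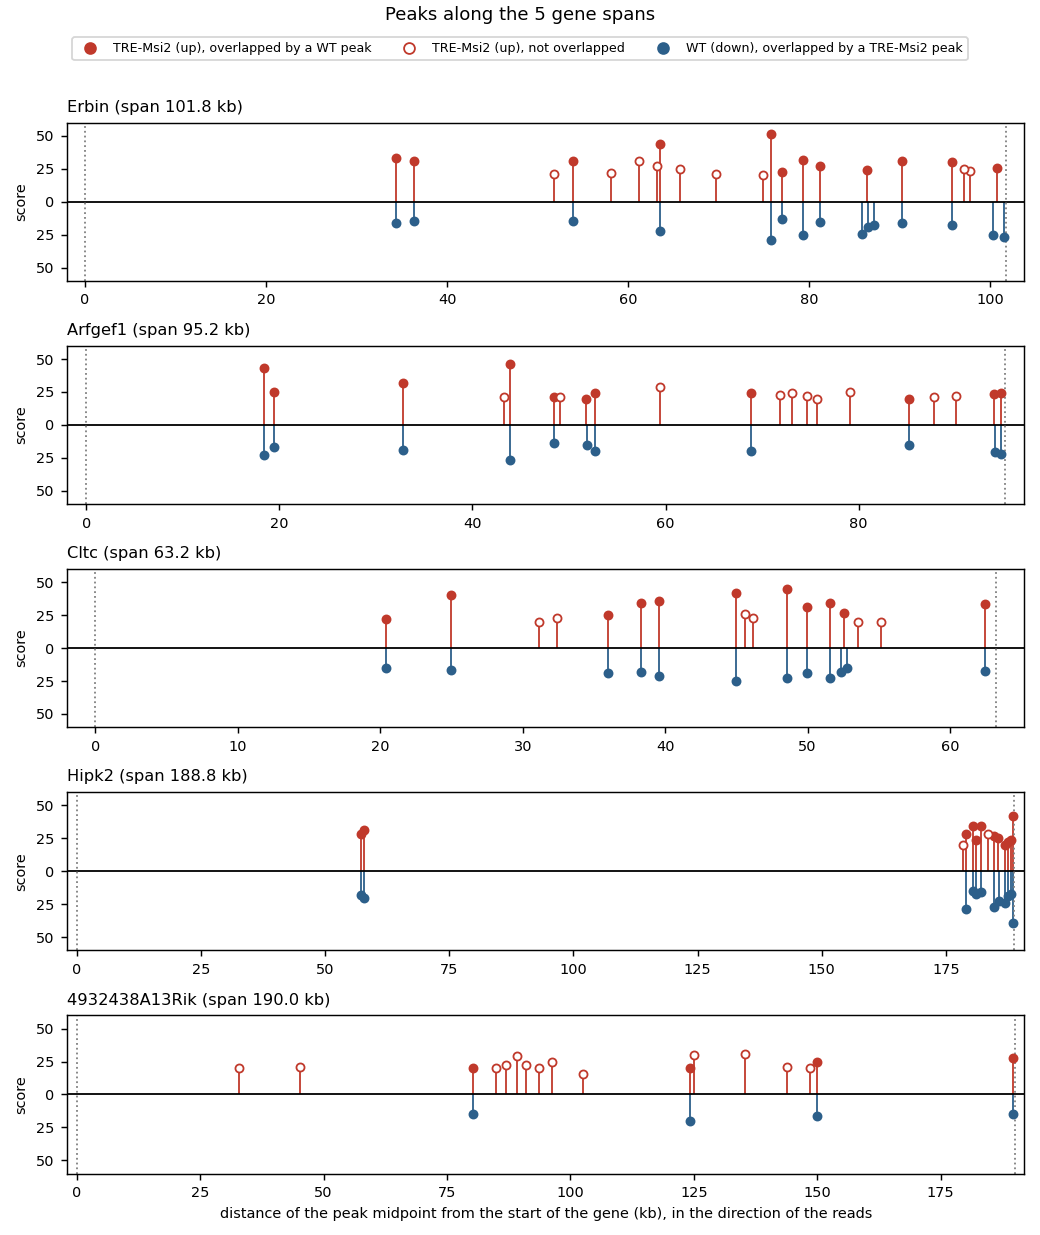
Peaks along the spans of the 5 genes, with the distance of the peak midpoint from the start of the gene in kb on the horizontal axis (dotted lines mark both ends of the span) and the authors' score on the vertical axis, TRE-Msi2 upward and WT downward. Filled points overlap a peak of the other list and open points do not; the open points are all TRE-Msi2, 40 in number, and Hipk2 alone has its peaks gathered at the end.

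Placement within the span differed between Hipk2 and the other 4 genes. In Hipk2 12 TRE-Msi2 and 10 WT peaks lay in the last 10% of the span. The other 4 genes together had 10 of 76 TRE-Msi2 peaks there (13.2%) and 7 of 42 WT peaks (16.7%). Without Arfgef1, whose direction rests on its own peaks, it was 6 of 55 (10.9%) and 5 of 31 (16.1%). Over genes of at least 10 kb, 51.7% of TRE-Msi2 and 60.4% of WT peaks on the transcribed strand lay in the last 10%. Most genes there have few peaks, and over genes with 10 or more peaks, without these 5, the shares were 20.4% and 15.2%. In the first 10% of the span these 5 genes had 0 of 90 TRE-Msi2 and 0 of 54 WT peaks, where genes of at least 10 kb had 2.17% and 1.72%. Without Arfgef1 it was 0 of 69 and 0 of 43. In the last 2 kb the 5 genes had 9 TRE-Msi2 peaks (10%) and 10 WT peaks (18.5%), against 39.2% and 47.1% over genes of at least 10 kb. Over other genes with 10 or more peaks these shares were 8.66% and 8.45%. Hipk2 alone held 4 of the 9 and 4 of the 10. Without Arfgef1 and Hipk2, 3 of 55 TRE-Msi2 peaks (5.45%) and 4 of 31 WT peaks (12.9%) lay in the last 2 kb. Single-bin peaks made up 69 of the 90 TRE-Msi2 peaks (76.7%) and 39 of the 54 WT peaks (72.2%), against 58.8% and 63.2% of the whole lists. Exons were not used here, so whether the interior peaks fall on exons or introns was not determined.

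Every WT peak of the 5 genes had a TRE-Msi2 counterpart on the same strand, 54 of 54 (exact Clopper-Pearson 95% interval 93.4% to 100%). The share over all WT peaks was 91.3%, over WT peaks in protein-coding spans 91%, and over other genes with 10 or more WT peaks 97.1%. In the other direction 50 of 90 TRE-Msi2 peaks had a WT counterpart (55.6%, 44.7% to 66.0%), against 57.6% of all TRE-Msi2 peaks, 58.7% of those in protein-coding spans and 62.1% in other genes with 10 or more. The TRE-Msi2 share is close to that of the whole list. The WT share is above that of its whole list and nearest to that of other genes with 10 or more WT peaks. As the 5 genes were chosen for many peaks in at least 1 list, this share is partly set by the choice. It is not a finding. The 50 and 54 differ because 3 TRE-Msi2 peaks, 2 in Erbin and 1 in Cltc, each cover several WT peaks.

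Sharing varied from gene to gene. Of the TRE-Msi2 peaks, 12 of 14 were overlapped by a WT peak in Hipk2, 11 of 17 in Cltc, 12 of 21 in Erbin, 11 of 21 in Arfgef1 and 4 of 17 in 4932438A13Rik. Of the 40 without a WT peak, 13 were therefore in 4932438A13Rik, 10 in Arfgef1, 9 in Erbin, 6 in Cltc and 2 in Hipk2. By number of peaks, 4932438A13Rik stood high in the TRE-Msi2 list only (17, against 4 in WT). Its low sharing is thus partly set by how the genes were chosen and is not a finding. No test of these differences was made.

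Single-bin TRE-Msi2 peaks without a WT counterpart mostly had scores near the floor. Their median was 22 (20 to 31, n = 38), against 31 (20 to 51, n = 31) for those with one. In Cltc the medians were 21.5 without and 35 with a counterpart, and in Erbin 23 and 32. The gap was smaller in Hipk2 (24 and 29), Arfgef1 (22 and 25) and 4932438A13Rik (22 and 25). Scores of 30 or more occurred in 3 of the 38 and in 19 of the 31. With wide peaks included at their listed score the medians were 22 (n = 40) and 28.25 (n = 50).

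**Figure D3:**
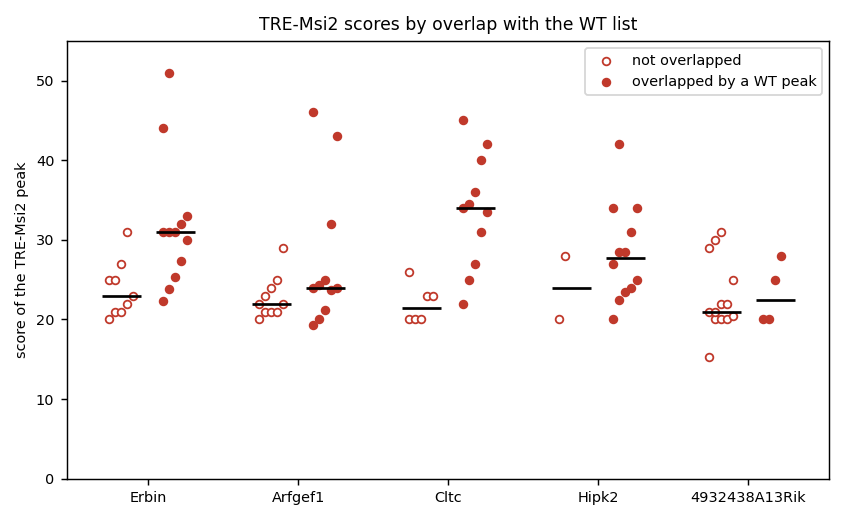
Authors' score of each TRE-Msi2 peak (vertical axis) by gene, with open points for peaks not overlapped by a WT peak and filled points for overlapped ones; black bars are medians, with wide peaks included at their listed score. Open points mostly lie between 20 and 29, and only 3 of them, 1 in Erbin and 2 in 4932438A13Rik, reach 30.

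Sharing of the single-bin TRE-Msi2 peaks of the 5 genes was also counted within 3 classes of score. At scores of 20 to 24, 7 of 33 had a WT counterpart (21.2%, exact 95% interval 8.98% to 38.9%), against 19.5% of such peaks in protein-coding spans. At 25 to 29 it was 5 of 14 (35.7%, 12.8% to 64.9%), against 50.4%. At 30 and above it was 19 of 22 (86.4%, 65.1% to 97.1%), against 84.2%. All 3 intervals include the value of the protein-coding spans, which hold the 5 genes too. The intervals are wide, so this does not show that the shares are equal. The exceptions at 30 and above were the Erbin bin at 103859321 to 103859520 (31) and the 4932438A13Rik bins at 36988079 to 36988278 (30) and 36998279 to 36998478 (31). In Erbin 0 of 5 single-bin peaks scoring 20 to 24, 0 of 3 scoring 25 to 29 and 7 of 8 scoring 30 or more had a counterpart. In 4932438A13Rik it was 1 of 8, 2 of 4 and 0 of 2. Whether score accounts for the low sharing of 4932438A13Rik was not tested.

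Peaks present in both lists had the same limits in 41 cases, which is 82% of the shared TRE-Msi2 peaks against 59.2% over the whole list. For the WT peaks of these genes it was 75.9%, against 52.4%. These shares are not matched on peak width. Single-bin peaks were 76.7% of TRE-Msi2 and 72.2% of WT peaks in these genes, against 58.8% and 63.2% of the lists. Whether width accounts for the difference was not tested. Identical limits do not measure precision finer than a bin: the lists share a grid of 200 nt, on which 54 of 54 overlapping pairs of these genes and 99.2% of all 11122 overlapping pairs start at the same phase.

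The bins listed in both genotypes allow their scores to be set side by side, although depth is unknown and both lists have a floor. Over all 3943 single-bin peaks with identical limits the TRE-Msi2 score was a median of 1.52 times the WT score, with 10th and 90th percentiles of 1.13 and 2.00. The 31 such bins of the 5 genes had a median ratio of 1.67, and 19 of 31 lay above 1.52. Erbin had the highest median, 2.00 over 7 bins, of which 6 lay above 1.52. Cltc had 1.66 over 8 bins, 4932438A13Rik 1.56 over 3, Hipk2 1.48 over 6 and Arfgef1 1.47 over 7.

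Ratios within Hipk2 ranged from 0.833 to 2.27. Its bins at 38694202 and 38695802 scored 34 and 34 in TRE-Msi2, against 16 and 15 in WT (ratios of 2.12 and 2.27). Its bins at 38689402 and 38691602 scored 20 and 27 in TRE-Msi2, against 24 and 27 in WT (ratios of 0.833 and 1.00). The highest ratio of the 5 genes, 2.35, was in the Cltc bin at 86732499 to 86732698 (40 TRE-Msi2, 17 WT). With 15 to 40 reads behind each score, these ratios have wide counting error, and no replicate bears on them.

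**Figure D4:**
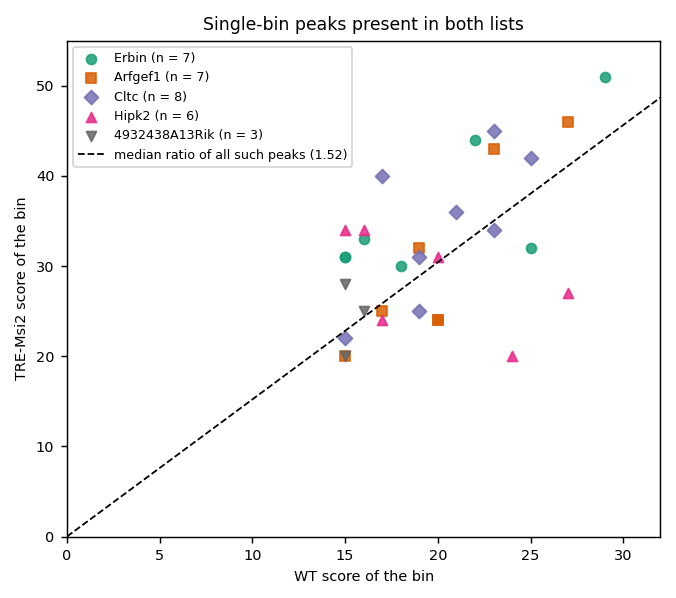
TRE-Msi2 score (vertical axis) against WT score (horizontal axis) of the 31 single-bin peaks that have the same limits in both lists, by gene; the dashed line is the median ratio over all 3943 such peaks, 1.52. In Erbin 6 of 7 bins lie above the line, and the 2 Hipk2 bins at WT scores of 24 and 27 lie farthest below it.

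Across bins, which are not independent replicates and share their libraries, the order of scores was alike in the lists in 3 genes. Spearman's rho was 0.71 in Arfgef1 (Pearson's r 0.89, 7 bins), 0.66 in Cltc (r 0.67, 8 bins) and 0.64 in Erbin (r 0.76, 7 bins). In Hipk2 it was -0.70 (r -0.59, 6 bins). Over all 3943 bins rho was 0.60 and r 0.74. These values describe few bins above a floor, and no p-value is given.

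Among the 5 genes, joining near neighbours changed the count most in Hipk2. With peaks at most 1 kb apart counted as 1, Hipk2 had 3 in the TRE-Msi2 list and 4 in the WT list, in place of 14 and 12. Joining also lowered the count in other genes with many peaks: Ahnak had 3 and 4 in place of 16 and 11, and Lcor 3 and 4 in place of 15 and 10. Hipk2 was then passed by 362 protein-coding genes in the TRE-Msi2 list and 66 in the WT list, in place of 18 and 8. Erbin still had 17 and 11, Arfgef1 14 and 8, Cltc 11 and 9, and 4932438A13Rik 16 and 4. Erbin was then passed by 2 genes in the TRE-Msi2 list and 4 in the WT list, and 4932438A13Rik by 3 in the TRE-Msi2 list. The median gap between neighbouring peaks was 400 nt (TRE-Msi2) and 600 nt (WT) in Hipk2, against 1400 and 2000 nt in Cltc, 2000 and 2400 nt in Erbin, 2400 and 6400 nt in Arfgef1, and 4300 and 39600 nt in 4932438A13Rik.

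**Figure D5:**
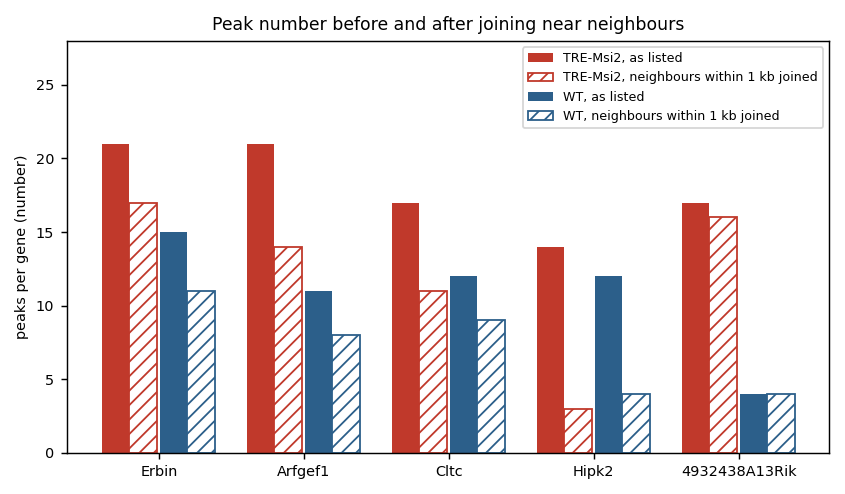
Number of peaks per gene (vertical axis) as listed (solid bars) and after peaks at most 1 kb apart were joined (hatched bars), TRE-Msi2 in red and WT in blue. Hipk2 falls to 3 and 4, while 4932438A13Rik keeps 16 and 4.

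Peaks over relatives and partners of the 5 genes were counted too. These genes were not chosen by peak number, so their counts are not set against those of the 5. Of 70 genes in 5 lists, 26 held a TRE-Msi2 peak and 26 a WT peak (37.1% each), against 24.9% and 20.3% of all protein-coding genes and 35.8% and 30.4% of those of 30 kb or more; the median span of the 70 was 65.2 kb. Picalm, which recruits clathrin to membranes, held 10 TRE-Msi2 and 5 WT peaks; no other of the 70 held more than 6 TRE-Msi2 peaks, and Hipk1 also held 5 WT peaks.

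Among the homeodomain-interacting kinases, Hipk1 held 5 TRE-Msi2 and 5 WT peaks and Hipk3 held 5 and 4; Hipk4 held none. Both shared with Hipk2 a placement toward the end of the gene. In the last 10% of the span lay 4 of 5 TRE-Msi2 and 4 of 5 WT peaks of Hipk1, and 4 of 5 and 4 of 4 of Hipk3. One peak of Hipk3 in each list also touched another span. As 51.7% of TRE-Msi2 and 60.4% of WT peaks lie there over genes of at least 10 kb, this placement is not particular to the family. Of the 13 genes in that list 7 held a TRE-Msi2 and 6 a WT peak; the acetyltransferase genes Crebbp (5 and 2) and Ep300 (3 and 1) followed.

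Clathrin and its adaptors gave 11 of 24 genes in each list, 10 of them in both. The clathrin light chain genes Clta and Cltb held 1 peak each in both lists, on the transcribed strand. Picalm was followed by Ap2b1 (4 TRE-Msi2, 1 WT) and Ap2a2 (3 and 1), subunits of the endocytic adaptor, and Ap1g1 (3 and 2), a subunit of the Golgi adaptor. Hspa8, the chaperone that uncoats vesicles, held 2 and 4 peaks, of which 1 and 2 also touched another span.

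Arf exchange factors gave 4 of 15 genes in the TRE-Msi2 list and 5 of 15 in the WT list. Arfgef2, the closest relative of Arfgef1, held 4 TRE-Msi2 and 4 WT peaks, but only 2 and 1 of them lay on its transcribed strand. For Erbin, 4 of 9 family members and partners held a TRE-Msi2 and 3 of 9 a WT peak, led by Ctnnd1 (p120 catenin, 6 and 4) and the desmosomal gene Dsp (4 and 1). Its LAP family relatives Scrib and Lrrc7 held none, and Lrrc1 held 1 TRE-Msi2 peak. The bridge-like lipid transfer genes gave 0 of 9 in the TRE-Msi2 list and 1 of 9 in the WT list (Vps13b, 1 peak, with a score of 17).

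The genes nearest to each of the 5 were found by number of peaks and covered length in both lists. The measure was the Euclidean distance over log2(1 + x) of 4 values. Nearest to Erbin were Dpp4 (20 TRE-Msi2, 15 WT peaks), Ahnak (16 and 11) and Clca4b (15 and 12), at distances of 0.50, 0.59 and 0.84. Arfgef1 was nearest to Cdh17 (16 and 10; 0.44), Lcor (15 and 10; 0.50) and Dpp4 (0.57). Among those nearest to Cltc were Clca4b (0.22) and Cdh17 (0.29), and among those nearest to Hipk2 were Son (12 and 11; 0.27) and Clca4b (0.33). For 4932438A13Rik they were Raph1 (13 and 4; 0.48), Cyp3a13 (14 and 4; 0.49) and Cep350 (14 and 5; 0.57), all with 4 or 5 WT peaks. The measure does not use where in the span the peaks lie.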

How the data were processed

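RNA bound by MSI2 was measured by CLIP-seq in 4 libraries, 2 per genotype. The submitters' processing notes name cutadapt, TopHat, mm9 and mm10; the sources used here give no versions. Per the names of the deposited files, peaks were called with Piranha after duplicates were removed, on the merged samples of a genotype. The deposited column joins a score and a p-value per peak, both made by the authors. Of the peaks of the 5 genes that are wider than 1 bin, 12 of 21 TRE-Msi2 and 5 of 15 WT peaks carry a p-value above 0.05, and none of the single-bin peaks does. Each of these 17 p-values lies within 0.002 of a share k/(bins + k) with a whole k. An average over k further entries of p near 1 would give such a value. Over all wider peaks whose p-value gives a k above 0, this held less often. It held for 57.7% of 4203 TRE-Msi2 and 89.4% of 2481 WT peaks, so the form does not cover every wide peak.

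Gene spans come from a RefSeq table of GRCm38.p6 (mm10), and strands from RefSeq promoter entries of that build. A peak counts for a gene when 1 base lies in its span, and peaks are shared when 1 base overlaps on the same strand. Shares have exact Clopper-Pearson 95% intervals and scores exact Poisson intervals, both for counting error only. No test between genotypes was possible. The genes, the lists of relatives, the markers and the score classes were chosen with earlier results of these data known. Named genes are the 5, genes of the lists of relatives with a peak, the 3 nearest genes to each, and neighbours in the order of peak number; Hipk4, Scrib and Lrrc7, with no peak, were added after their values were seen. One of the nearest genes is not reported here. Alternatives were a median score filter, a p-value limit of 0.05, a TRE-Msi2 list shortened by score until it is as long as the WT list, peak midpoints, strand, the overlap required and bins in place of peaks; joining peaks within 1 kb was added after the data were seen. Assignment, overlap and joining were tested on simulated data. Python 3.11.15, pandas 2.3.3 and SciPy 1.17.1 were used.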

Additional observations from a re-analysis of the deposited data

How the results depend on the processing

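Of 26 alternatives for the totals over the 5 genes, 19 left the value within 1.5 times (counts) or within its own interval (shares). Keeping only peaks at or above the median score of their list left 46 TRE-Msi2 peaks in place of 90 and 27 WT peaks in place of 54, with 39.1% of TRE-Msi2 and 70.4% of WT peaks overlapped, in place of 55.6% and 100%. With only as many top-scoring TRE-Msi2 peaks as the WT list has, 66.7% of its peaks and 88.9% of WT peaks were overlapped. With p-values of at most 0.05, 83.7% of WT peaks were, since this drops wide peaks. Counting by strand or midpoint changed none of the totals, shares or numbers per gene. It could hardly do so, since all peaks of a gene lay on 1 strand and all midpoints in the span. Nor can shortening the TRE-Msi2 list change a number of WT peaks. These settings are still counted among the alternatives that left values unchanged, both in the 26 and in the 70 below. Of the 70, 10 are by strand and 10 by midpoint. Of 70 alternatives for the number of peaks per gene, 15 moved it by over 1.5 times, 9 of them the median score filter; 4932438A13Rik kept 8 TRE-Msi2 peaks with the shortened list, and in bins Erbin had 42 and 25. With an overlap of 50% required, 53.3% of TRE-Msi2 and 100% of WT peaks were overlapped. That every WT peak has a counterpart did not hold under the score and p-value limits. No paired analysis was possible because the libraries of a genotype are merged into 1 list, which also leaves no replicate to leave out. Depth is unknown, and peaks below a score of 20 (TRE-Msi2) or 15 (WT) per single bin are not in the lists.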

Other observations

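The p-values are not a common scale for scores of equal size: a single-bin score of 20 carries the authors' p-value of 0.000255 in the TRE-Msi2 list and 1.25e-05 in the WT list. On that scale the highest-scoring single-bin Erbin peak, 51 in TRE-Msi2 and 29 in WT, has 2.56e-08 and 1.92e-07. The last Hipk2 peak, 42 and 39.5, has 5.02e-07 and 1.72e-09, so that its order between the lists is the reverse of that of the scores. The widest Erbin peak has 11 bins, a score of 25.3 and a p-value of 0.313, the value that 5 entries of p near 1 among 16 would give. If each of those entries had a score of 1, the mean over the 11 bins alone would be 36.4. The entries are inferred and not listed, so this value is not a measurement.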
